A study of Mus musculus with 9 samples.

Results

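The luminal progenitor genes of the mammary gland were represented here by 8 genes: Elf5, Ehf, Elf3, Kit, Aldh1a3, Prom1, Ly6a and Muc1. A probe was taken as a member when the array's own annotation in the Fzd8-CRD scanner files gave it 1 of these names and it was no control spot. This gave 13 probes of 41174 on the array, and all 8 genes were among the 18212 genes tested. Elf5, Elf3, Kit and Ly6a had 1 probe each, Aldh1a3, Prom1 and Muc1 had 2, and Ehf had 3. Kit's probe was printed in 10 spots per array.

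The luminal layer of the mammary duct holds progenitor cells that lack oestrogen receptor and give rise to milk-secreting alveolar cells. Those cells are known for the ETS transcription factor Elf5, the receptor tyrosine kinase Kit and the retinaldehyde dehydrogenase Aldh1a3, whereas in the mouse Prom1 and Ly6a are better known from the hormone-sensing luminal cells beside them. Ehf and Elf3 are ETS factors of epithelia in general, and Muc1 is a mucin of the apical membrane.

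The study used tumour cells of MMTV-Wnt-1 and MMTV-Her2 mice, lines whose transgene, Wnt-1 or the receptor Her2, is expressed in mammary epithelium from the promoter of a mouse mammary tumour virus. The fresh cells had been sorted as negative for green fluorescent protein; the sources used here do not say what that protein marked. The Fzd8-CRD group (5 arrays) held cells treated with Fzd8-CRD, a Wnt inhibitor made of the ligand-binding part of Frizzled 8 in soluble form, and the Control group (4 arrays) held cells labelled as control. The design text calls the samples of each group biological replicates. Both tumour models are named for every array, the treatment field names the inhibitor for the control arrays too, and age, strain and what the controls received are not given, so the models could not be separated and the comparison rests on the treatment label. Each array set Cy5-labelled tumour cell RNA against a Cy3-labelled pooled reference RNA, which the labels describe in 3 conflicting ways. All 17 general epithelial genes tested, Epcam, Krt8 and Krt18 among them, were well above background in Cy5 on all 9 arrays.

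The 5 Fzd8-CRD arrays came from 4 slides and 2 scan days, and the 4 Control arrays from a single earlier day and a slide of their own, so slide, scan day and treatment cannot be told apart. The share of probes with a clear Cy5 signal was 52.5% to 60.0% on Fzd8-CRD arrays, against 63.8% to 70.8% on Control arrays. Control replicate 2 stood apart: its log2 ratios correlated with those of the other 8 arrays at 0.618 to 0.737 across genes. Markers of several blood cell types were highest on it, as were the summed Cy5 levels of endothelial and of fibroblast markers. Results on the members are therefore also given without it where that changed a call. In bulk RNA such as this, fewer cells of a type and less RNA per cell cannot be told apart.

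The probes are shown because most of what follows turns on how much of each dye they bound. The Ehf and Muc1 genes each had a probe whose genomic span was longer than its 60 bases, so that it crosses at least 1 splice junction, and these probes, with a second Ehf probe of that kind, an upstream Prom1 probe and the other Muc1 probe, were as follows (array annotation, mouse build mm8, 5′ to 3′, no letters marked).
Ehf A_52_P205877, chr2:103074767-103074926, minus strand: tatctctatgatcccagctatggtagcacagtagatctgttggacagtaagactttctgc
Ehf A_52_P272429, chr2:103080589-103084405, minus strand: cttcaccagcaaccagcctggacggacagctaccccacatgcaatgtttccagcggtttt
Prom1 A_52_P402786, chr5:44294419-44294478, minus strand: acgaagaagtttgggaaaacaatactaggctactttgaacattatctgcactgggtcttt
Muc1 A_51_P467346, chr3:89316970-89317029, plus strand: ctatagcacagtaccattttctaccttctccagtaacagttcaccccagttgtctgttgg
Muc1 A_52_P58208, chr3:89317108-89317265, plus strand: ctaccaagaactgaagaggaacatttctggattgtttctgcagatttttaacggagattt
The Ehf probes spanned 160 and 3817 genomic bases and Muc1 A_52_P58208 spanned 158. Each of the 5 sequences had at least 1 forward reading frame without a stop codon. The GC content was 43.3% and 55.0% in the Ehf probes, in the order shown, and 38.3% in the Prom1 probe.

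Expression was first compared as the log2 ratio of Cy5 to Cy3 after background correction and loess normalization within each array. Of the 8 genes, 4 were lower in Fzd8-CRD cells by limma with Benjamini-Hochberg adjustment over all genes: Prom1 fell by 1.68, Ehf by 1.42, Ly6a by 1.22 and Muc1 by 1.00 log2 units. Over all 18212 genes 7.78% were lower and 6.59% higher at the same threshold of 0.05. None of the 8 was higher, and at an unadjusted p under 0.05 there were still 4 lower and 0 higher, against 17.6% of all genes lower and 14.4% higher. The median difference was -0.83 over the 8 genes, against -0.07 over all genes. The same 4 genes were those whose 5 Fzd8-CRD values all lay below the 4 Control values, a pattern that 11.7% of all genes showed. Elf5, Kit, Aldh1a3 and Elf3, which did not pass the test, had overlapping groups.

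**Figure D1:**
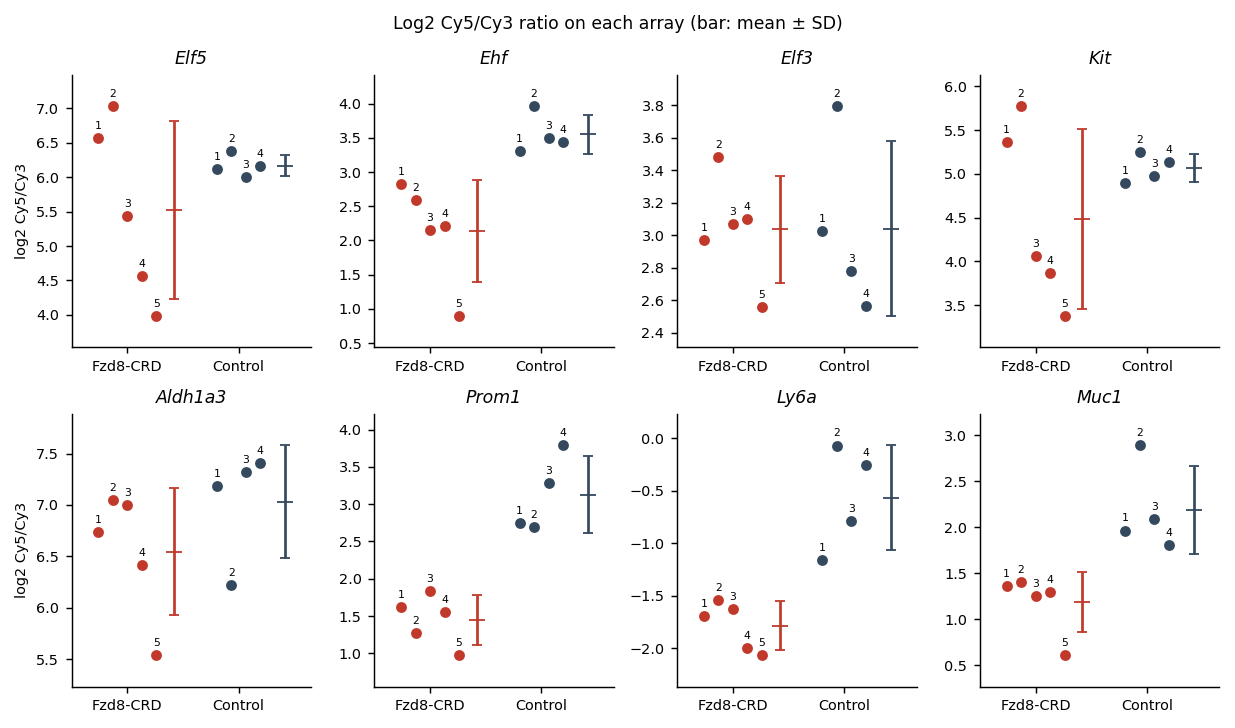
Log2 Cy5/Cy3 ratio of each gene on each array, with Fzd8-CRD arrays on the left and Control arrays on the right of each panel. Numbers beside the points are replicate numbers and bars show the mean ± SD (5 Fzd8-CRD, 4 Control). The groups do not overlap for Ehf, Prom1, Ly6a and Muc1, and Fzd8-CRD replicate 5 is the lowest point of its group in all 8 panels.

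Among the ETS factors, Elf5 directs the alveolar fate of luminal progenitors downstream of prolactin. Its log2 ratio was 6.57, 7.03, 5.43, 4.56 and 3.98 on Fzd8-CRD replicates 1 to 5, against 6.12, 6.38, 6.01 and 6.16 on Control replicates 1 to 4. Thus 2 Fzd8-CRD arrays stood above every Control array and 3 below. The SD was 1.29 in the Fzd8-CRD group and 0.16 in the Control group, and the difference of -0.65 (SE 0.57, 95% confidence interval -1.93 to 0.63, limma adjusted p = 0.445) did not pass the test.

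Ehf, which is active in the luminal and other glandular epithelia, had log2 ratios of 2.82, 2.60, 2.16, 2.22 and 0.90 on the Fzd8-CRD arrays, against 3.31, 3.97, 3.50 and 3.45 on the Control arrays. Every Fzd8-CRD array was below every Control array, by a mean of 1.42 log2 units or 2.67-fold (SE 0.35, limma adjusted p = 0.0281). All 3 Ehf probes were lower, with differences of -1.42, -1.74 and -1.49. The adjusted p of the gene was 0.0520 without Control replicate 2, and 0.0547, 0.0666 and 0.0590 without Fzd8-CRD replicate 4, Control replicate 3 or Control replicate 4.

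Elf3, an ETS factor of simple and stratified epithelia, had 2.97, 3.48, 3.07, 3.1 and 2.56 on the Fzd8-CRD arrays, against 3.02, 3.79, 2.78 and 2.57 on the Control arrays. The groups lay within each other's range, with means of 3.04 ± 0.33 in Fzd8-CRD cells and 3.04 ± 0.54 in Control cells (SD, n = 5 and 4). The 95% confidence interval of the difference ran from -0.59 to 0.58 (limma adjusted p = 0.993). The rest of the ETS family that was tested gave 0 genes higher and 2 lower of 20. These were Erg, which fell by 2.24 log2 units, and Fli1, which fell by 1.38; both are ETS factors of endothelial and blood cells. At an unadjusted p under 0.05 the list had 2 higher and 5 lower, and its median difference was -0.18.

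Kit is the receptor for stem cell factor and marks luminal progenitors as well as mast cells and melanocytes. Its log2 ratio was 5.37, 5.77, 4.06, 3.87 and 3.38 on the Fzd8-CRD arrays, against 4.89, 5.25, 4.97 and 5.13 on the Control arrays. The 5 Fzd8-CRD arrays stood in the same order as for Elf5, replicate 2 highest, then replicates 1, 3, 4 and 5, and replicates 1 and 2, which were above all Controls for both genes, were the most alike pair of the group across all genes (r = 0.976). The SD was 1.03 in the Fzd8-CRD group and 0.16 in the Control group. The difference of -0.57 (SE 0.46, 95% confidence interval -1.60 to 0.45, limma adjusted p = 0.403) did not pass the test.

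Of the genes that act with Kit in signalling, 1 of 15 tested was higher and 0 lower by limma, and at an unadjusted p under 0.05 there were 6 higher and 1 lower. The gene whose ratio rose was Cbl, a ubiquitin ligase that removes activated Kit, by 0.42 log2 units (adjusted p = 0.0452, and 0.0518 without Control replicate 2). In the Cy5 channel alone Cbl differed by 0.07 (limma adjusted p = 0.706), and in the Cy3 reference by -0.30 (adjusted p = 0.000221). Mast cell markers were measured because mast cells also express Kit. Of the 7 markers, 3 gave a clear Cy5 signal on at least 1 Fzd8-CRD array and all 7 on at least 1 Control array. Their summed Cy5 level ranged from 650 to 1062 on Fzd8-CRD arrays, against 1042 to 10888 on Control arrays, where Control replicate 2 held the highest value and the other 3 reached at most 2016. The mast cell chymase Cma1 was well above background on 1 Fzd8-CRD array and on all 4 Control arrays. It passed the filter of 4 arrays with a clear Cy5 signal only through the Control group, so its test is no support. Its log2 ratio differed by -2.40, and by -1.57 without Control replicate 2, against Fzd8-CRD values mostly not above background. Kit itself was at 5.25 on Control replicate 2 and between 4.89 and 5.13 on the other 3 Control arrays. Of the 4 melanocyte markers, Tyr and Tyrp1 were above background on no array. The part of mast cells in the Kit values was not tested.

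Aldh1a3, the retinaldehyde dehydrogenase that makes retinoic acid in luminal progenitors, had log2 ratios of 6.74, 7.04, 7.0, 6.42 and 5.54 on the Fzd8-CRD arrays, against 7.18, 6.22, 7.32 and 7.41 on the Control arrays. Control replicate 2 was the lowest of its group and Fzd8-CRD replicate 5 the lowest of all 9 arrays. The difference was -0.48 (SE 0.35, 95% confidence interval -1.27 to 0.30, limma adjusted p = 0.356), and the other Aldh1a3 probe differed by -0.66 (adjusted p = 0.368). Of 18 other retinoic acid genes tested, 3 were lower and 0 higher, with 6 lower and 0 higher at an unadjusted p under 0.05. They were the related enzyme Aldh1a1, which fell by 2.60 log2 units, the carrier protein Crabp2, which fell by 1.16, and the receptor Rarb, which fell by 0.86. In the Cy5 channel alone Aldh1a1 differed by -2.62 (limma adjusted p = 0.00646). Crabp2, at -0.38 (adjusted p = 0.125), and Rarb, at -0.44 (adjusted p = 0.0651), did not pass there. Aldh1a1 had mean log2 ratios of -0.33 ± 0.43 in Fzd8-CRD cells and 2.27 ± 1.08 in Control cells (SD, n = 5 and 4; limma adjusted p = 0.0090), and without Control replicate 2 its difference was -2.10 (adjusted p = 0.00569).

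Prom1, or CD133, is a membrane protein of plasma membrane protrusions. Its log2 ratio was 1.62, 1.28, 1.84, 1.55 and 0.97 on the Fzd8-CRD arrays, against 2.74, 2.70, 3.29 and 3.79 on the Control arrays. The highest Fzd8-CRD array lay below the lowest Control array, and the mean was 3.20-fold lower (-1.68, SE 0.26, limma adjusted p = 0.00575). The upstream Prom1 probe printed above gave 0.49, 0.39, 0.69, 0.46 and 0.39 on the Fzd8-CRD arrays, against 1.51, 1.29, 2.45 and 3.02 on the Control arrays. Both probes thus put every Fzd8-CRD array below every Control array, and the upstream probe's difference was -1.58 (SE 0.32, adjusted p = 0.0136 over 26722 kept probes). Among those kept probes 7.87% were lower. Prom1 passed the test in each of the 9 fits that left out 1 array, with differences of -1.82 to -1.46. Prom2, the other prominin gene, differed by -0.00450 log2 units (adjusted p = 0.997). In Cy5 alone it differed by 0.77 and in the scanner software's own log ratio by 1.55, and it did not pass the test in either.

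Ly6a, or Sca-1, is a surface protein held by a lipid anchor, found in the mouse on hormone-sensing luminal cells and also on endothelial cells and lymphocytes, and it is induced by interferon. Its log2 ratio was -1.69, -1.54, -1.63, -1.99 and -2.06 on the Fzd8-CRD arrays, against -1.16, -0.07, -0.78 and -0.25 on the Control arrays. The Fzd8-CRD values lay close together and below all Controls, which were more spread (SD 0.23 in Fzd8-CRD cells and 0.50 in Control cells). The mean was 2.32-fold lower (-1.22, SE 0.23, limma adjusted p = 0.0113). Ly6a passed the test in each of the 9 fits that left out 1 array, with differences of -1.41 to -1.05.

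Genes of endothelial cells, of the interferon response and of the Ly6 family were examined beside Ly6a, and their part in its fall was not tested. All 7 endothelial markers were lower, with a median difference of -1.70. Only 4 of the 7 had a clear Cy5 signal on every array. The others had it on all 4 Control arrays but on only 2 or 3 Fzd8-CRD arrays. For them the Fzd8-CRD values were partly not above background, so their tests are weak support. Among the 4 with a clear signal throughout, Emcn, a sialomucin of venous and capillary endothelium, fell by 3.04 log2 units. The adhesion molecule Icam2, also among the 4, fell by 1.70. The summed Cy5 level of all 7 was 1403 to 2871 on Fzd8-CRD arrays, against 4828 to 7698 on Control arrays, so the groups did not overlap. All 7 remained lower without Control replicate 2, and all 7 were lower in Cy5 alone, with the same limit for the dimmer markers. In the scanner software's log ratio 3 of the 7 were lower and 0 higher; there Emcn differed by -0.18 (adjusted p = 0.852) and the receptor Kdr, chosen after its values were seen, by 0.33 (adjusted p = 0.582). Of 22 interferon-stimulated genes, 2 were lower and 0 higher, with 8 lower and 0 higher at an unadjusted p under 0.05. The 2 lower genes were Usp18, a protease that removes the modifier Isg15, which fell by 0.99, and Oasl1, which fell by 0.90. In Cy5 alone 6 of the 22 were lower and 1 higher, and in the scanner software's log ratio 3 were lower and 0 higher. Of 15 other genes of the Ly6 family, 3 were lower and 0 higher, with 3 lower and 1 higher at an unadjusted p under 0.05. They were Ly6c1, which fell by 1.56 log2 units, Ly6g6e, which fell by 1.71, and Ly6g5c, which fell by 0.72. Ly6a has close relatives in the mouse genome, and binding of their RNA to its probe was not tested. Of the lymphocyte markers, 0 of 5 T cell and 0 of 4 B cell genes passed limma's test, with 1 and 0 at an unadjusted p under 0.05, and the summed T cell level was 475 to 615 on Fzd8-CRD arrays, against 592 to 5287 on Control arrays, where Control replicate 2 held the highest value and the other 3 reached at most 668. Of 6 fibroblast markers limma called 0, with 0 higher and 3 lower at an unadjusted p under 0.05 and a median difference of -1.23. Without Control replicate 2, 1 was higher and 0 lower, with a median of -0.86. Their summed Cy5 level was 11184 to 32040 on Fzd8-CRD arrays, against 17404 to 92294 on Control arrays, highest on Control replicate 2. The part of fibroblasts in the Ly6a values was not tested.

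Muc1 coats the apical membrane of luminal cells. The brighter probe, A_52_P58208, had log2 ratios of 1.36, 1.40, 1.26, 1.30 and 0.61 on the Fzd8-CRD arrays, against 1.97, 2.89, 2.09 and 1.81 on the Control arrays. The groups did not overlap, 4 of the Fzd8-CRD arrays lay close together, and the mean was 2.01-fold lower (-1.0, SE 0.25, limma adjusted p = 0.0271). Leaving out Fzd8-CRD replicate 1 gave an adjusted p of 0.0506, and leaving out Control replicate 3 gave 0.0607. The probe A_51_P467346 gave 0.78, 1.02, 0.60 and 0.39 on Fzd8-CRD replicates 1, 2, 3 and 5, against 1.27, 2.32, 1.58 and 1.14 on the Control arrays; its spot on Fzd8-CRD replicate 4 was an outlier on the scanner and was left out of the fit. Its groups did not overlap either, and the difference of -0.88 (SE 0.27, adjusted p = 0.0589) did not pass the test. Of 8 other mucin genes tested, limma called 0, with 0 higher and 1 lower at an unadjusted p under 0.05.

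Taking the 13 probes one by one, all had a lower mean log2 ratio in Fzd8-CRD cells, 7 of them passed the test and 0 were higher. The probes of 1 gene share their source and are not separate evidence. Fzd8-CRD replicate 5 had the lowest log2 ratio of its group for all 8 genes, and over all genes it was the lowest for 25.3%. In Cy5 alone it was the lowest for 4 of the 8, against 22.5% of all genes. In the scanner software's log ratio it was the lowest for 2 of the 8, against 23.1%. The general epithelial genes were also low on that array, with a median of -0.85 relative to each gene's mean over the 9 arrays, against -0.28 to 0.14 on the other Fzd8-CRD arrays and 0.06 to 0.47 on the Control arrays. Without that array 4 of the 8 genes were still lower. In all, 4 of 17 general epithelial genes had a lower ratio and 1 a higher one. Among them the splicing factor Esrp1 differed by -1.58, the tight junction protein Cldn4 by -1.31 and the protease inhibitor Spint2 by 1.69. In Cy5 alone they differed by -0.70, -2.04 and 3.68 (limma adjusted p = 0.0123, 0.00274 and 1.84e-05). In the Cy3 reference they differed by -0.08, -1.19 and 1.79 (limma adjusted p = 0.132, 4.26e-07 and 8.43e-11). The reference thus differed between the groups for Cldn4 and Spint2 as well, and its part was not tested. Without Control replicate 2, 2 of the 17 were lower and 1 higher, and Cldn4 no longer passed (adjusted p = 0.0595). In the scanner software's log ratio, 0 of the 17 were lower and 1 higher, with a median difference of 0.04 against -0.46 in the normalized ratio, and Esrp1, Cldn4 and Spint2 did not pass. Cldn4 was above 0 there without passing the test (0.88), as it was after scaling between arrays (1.04); the other list genes named here as changed, Kdr aside, kept their sign in both.

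Further genes of luminal progenitors and of the cells beside them were mixed in direction. Of 19 further luminal progenitor genes, 3 were higher and 2 lower, with a median difference of 0.12. Itgb3, an integrin subunit of luminal progenitors, rose by 1.55 log2 units, with mean log2 ratios of 2.95 ± 0.26 in Fzd8-CRD cells and 1.40 ± 0.25 in Control cells (SD, n = 5 and 4; limma adjusted p = 0.0026). Mfge8, a milk fat globule protein, rose by 0.95, and Lypd3, a surface protein related to the Ly6 family, rose by 0.90. In Cy5 alone Mfge8 differed by 0.66 (limma adjusted p = 0.0333) and Lypd3 by 0.22 (adjusted p = 0.711). Lypd3 differed by -0.87 in the Cy3 reference (adjusted p = 0.00353), so its higher ratio is not shown as a rise in tumour cell RNA. The tetraspanin Tspan8 fell by 1.21 (adjusted p = 0.0158). Of 11 hormone-sensing luminal genes, 1 was higher and 0 lower, with 1 in each direction at an unadjusted p under 0.05. The gene was the T-box factor Tbx3, which rose by 1.12, and without Control replicate 2 its adjusted p was 0.0518. Without that array the list had 0 higher and 1 lower, the progesterone receptor Pgr, also named after its values were seen (-0.71, adjusted p = 0.0201), which differed by -0.54 over all arrays (adjusted p = 0.089). Of 12 basal genes, 2 were higher and 1 lower. Of 16 prolactin and alveolar genes, limma called 0, with 2 higher and 0 lower at an unadjusted p under 0.05. In the scanner software's log ratio 5 of the further luminal progenitor genes were higher and 1 lower, as were 2 and 0 of the hormone-sensing, 4 and 1 of the basal, and 3 and 0 of the prolactin and alveolar genes. Without Control replicate 2, the basal genes had 2 higher and 0 lower. These lists were chosen with results of these data known, so their counts are descriptions.

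A ratio carries both dyes, so the Cy5 channel, which holds the tumour cell RNA, was also tested alone after quantile normalization. Of the 8 genes, 2 were lower and 0 higher by limma, with 3 lower and 0 higher at an unadjusted p under 0.05. Over all genes 8.73% were lower and 10.1% higher, and at the unadjusted threshold 17.2% were lower and 18.6% higher. The median difference was -0.19 over the 8 genes and -0.01 over all genes. With Cy5 scaled to each array's 75th percentile in place of quantiles, 2 of the 8 were again lower and 0 higher, but 5.86% of all genes were lower and 17.8% higher. The median difference was then 0.23 over all genes and -0.15 over the 8.

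In Cy5 alone Ly6a had log2 intensities of 8.67, 8.90, 8.80, 8.45 and 8.24 on the Fzd8-CRD arrays, against 9.56, 10.49, 9.78 and 10.43 on the Control arrays. The groups did not overlap and the difference was -1.45 (SE 0.23, limma adjusted p = 0.00445). Ehf had 9.09, 8.66, 8.96, 8.69 and 7.99 on the Fzd8-CRD arrays, against 9.52, 10.18, 10.03 and 9.77 on the Control arrays. These did not overlap either, and the difference was -1.20 (SE 0.23, adjusted p = 0.0095). How many of all genes lacked overlap was not counted for Cy5 alone or for the scanner's ratio.

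Prom1 had log2 Cy5 intensities of 7.92, 7.51, 8.58, 8.0 and 8.08 on the Fzd8-CRD arrays, against 8.52, 8.51, 8.70 and 9.24 on the Control arrays. Fzd8-CRD replicate 3 alone reached into the Control range, and the difference of -0.73 (SE 0.23, limma adjusted p = 0.0527) missed the threshold. Muc1 had 7.81, 7.74, 8.16, 7.86 and 7.70 on the Fzd8-CRD arrays, against 8.14, 8.90, 8.0 and 7.71 on the Control arrays. Its groups overlapped, and the difference was -0.33 (95% confidence interval -0.83 to 0.17, adjusted p = 0.30).

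Elf5, Kit, Aldh1a3 and Elf3 did not pass the test in Cy5 alone. Elf5 had log2 intensities of 13.33, 13.28, 12.33, 11.04 and 11.42 on the Fzd8-CRD arrays, against 12.20, 12.34, 12.35 and 12.42 on the Control arrays, a difference of -0.04 (95% confidence interval -1.08 to 0.99). Kit had 11.79, 11.76, 10.86, 10.34 and 10.76 on the Fzd8-CRD arrays, against 10.78, 11.09, 10.89 and 11.15 on the Control arrays, a difference of 0.13 (95% confidence interval -0.54 to 0.79). For both, replicates 1 and 2 again stood above all Controls and replicates 4 and 5 below. The intervals are wide, so a change of either sign is not shown to be absent. Aldh1a3 differed by 0.51 (95% confidence interval -0.19 to 1.20) and Elf3 by 0.13 (-0.55 to 0.82), and limma's adjusted p lay between 0.258 and 0.953 for the 4 genes.

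**Figure D2:**
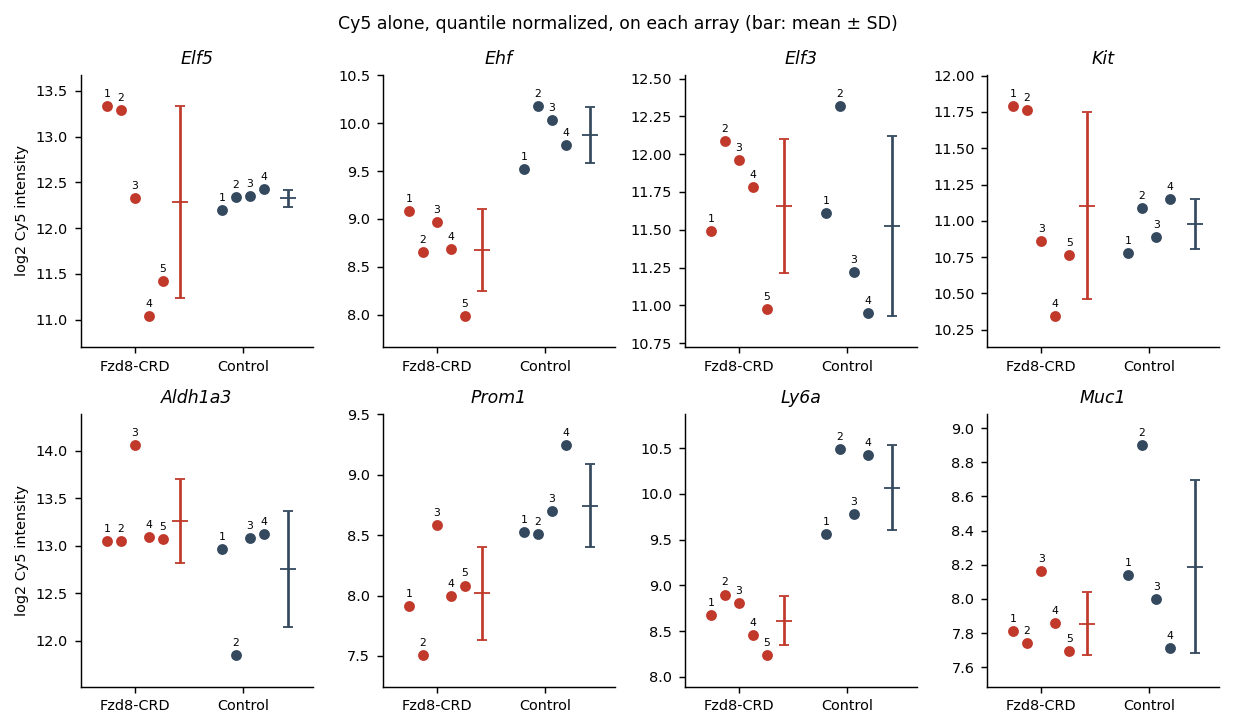
Log2 Cy5 intensity of each gene on each array after quantile normalization, with Fzd8-CRD arrays on the left and Control arrays on the right of each panel. Numbers are replicate numbers and bars show the mean ± SD. Only Ehf and Ly6a have groups that do not overlap, and Elf5 and Kit are widely spread over the Fzd8-CRD arrays. The share of all genes without overlap was not counted for Cy5 alone.

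The scanner software's own log ratio, turned to log2, gave another picture. Of the 8 genes, 3 were higher and 2 lower by limma, against 8.52% of all genes higher and 6.67% lower. Ly6a (-1.45, SE 0.28, adjusted p = 0.0101) and Prom1 (-1.43, SE 0.32, adjusted p = 0.0181) were lower, as in the normalized ratio. For Prom1 the scanner software had replaced the Cy3 signal by a surrogate value on 5 Fzd8-CRD arrays and 0 Control arrays. Its scanner ratio thus compares replaced with measured denominators. Elf5, Ehf and Kit were higher.

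Kit had scanner log2 ratios of 7.54, 8.22, 7.84, 7.67 and 8.32 on the Fzd8-CRD arrays, against 6.59, 6.85, 6.20 and 6.20 on the Control arrays. The groups did not overlap, and the difference was 1.46 (SE 0.24, limma adjusted p = 0.00705). Elf5 had 7.88, 8.52, 8.39, 7.98 and 7.81 on the Fzd8-CRD arrays, against 7.27, 7.73, 6.71 and 6.82 on the Control arrays, again without overlap, and differed by 0.98 (SE 0.27, adjusted p = 0.0361). Ehf had 6.33, 4.76, 6.99, 6.20 and 5.98 on the Fzd8-CRD arrays, against 4.53, 4.92, 4.00 and 4.09 on the Control arrays, a difference of 1.67 (SE 0.41, adjusted p = 0.0245).

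Ehf therefore passed the test with opposite signs in the normalized ratio and in the scanner's ratio. Its 3 probes also disagreed in the scanner's ratio. A_52_P205877, which spans 160 bases, was higher by 1.67, A_52_P609918 differed by 0.84 and A_52_P272429, which spans 3817 bases, differed by -0.90. The adjusted p over kept probes was 0.066 and 0.0913 for the last 2. In Cy5 alone all 3 had negative differences, of -1.20, -0.77 and -0.97. Aldh1a3, Elf3 and Muc1 differed by 0.79, 0.36 and 0.16 in the scanner's ratio and did not pass the test, with adjusted p from 0.0755 to 0.688. The groups did not overlap for Aldh1a3 there, with every Fzd8-CRD array above every Control array.

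**Figure D3:**
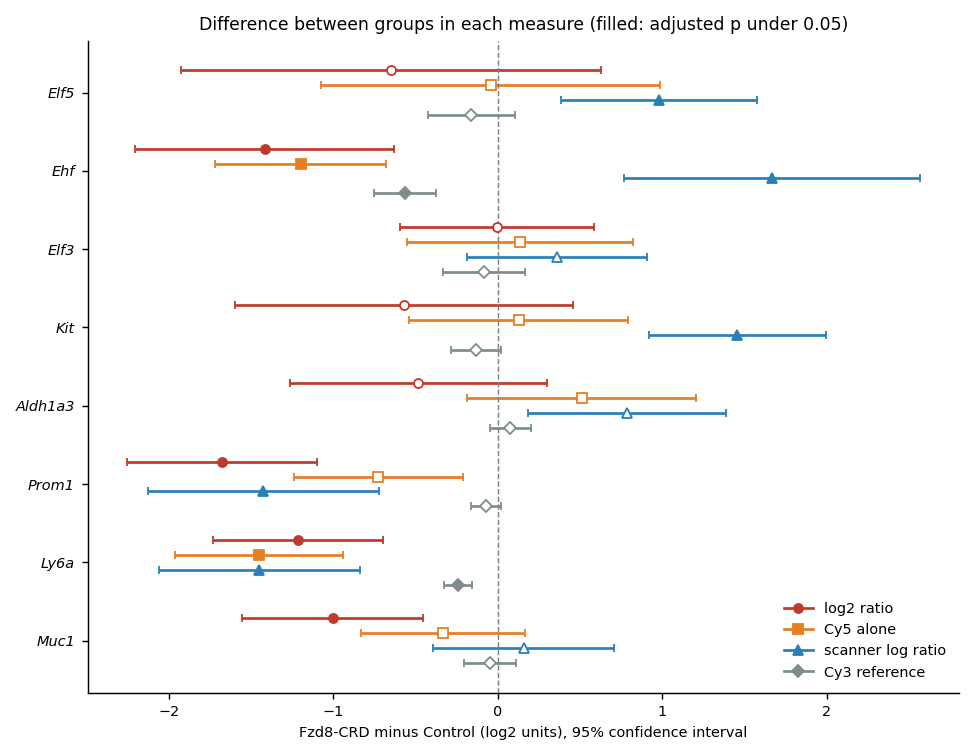
Difference of each gene, Fzd8-CRD minus Control in log2 units on the horizontal axis, in 4 measures, with 95% confidence intervals from limma. Filled symbols passed an adjusted p of 0.05. Ly6a and Prom1 lie left of 0 in the normalized ratio, in Cy5 alone and in the scanner's ratio. Elf5, Ehf, Kit, Aldh1a3 and Muc1 lie left of 0 in the normalized ratio and right of 0 in the scanner's ratio. The Cy3 reference holds no tumour cell RNA, so its sign is no support for a change.

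The denominators of these ratios were then examined. In Cy5 all 13 probes were well above background on all 9 arrays. In Cy3 only the Elf3 and Ly6a probes were, so that for the other 11 the reference signal was at or near background on at least 1 array. Neither Prom1 probe was well above background in Cy3 on any array.

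Ehf A_52_P205877 had a net Cy3 intensity (spot mean minus local background) of -6.27, 14.5, -1.75, -12.9 and -5.67 on the Fzd8-CRD arrays, against 44.0, 48.8, 92.8 and 71.7 on the Control arrays. Its net Cy5 intensity was 340, 264, 328, 246 and 156 on the Fzd8-CRD arrays, against 712, 805, 1717 and 1392 on the Control arrays. Both dyes were lower on every Fzd8-CRD array, and 4 of the 5 had less Cy3 in the spot than around it. Kit had a net Cy3 intensity of 5.93, 19.2, 0.43, -9.13 and 2.02 on the Fzd8-CRD arrays, against 29.3, 24.6, 41.4 and 47.6 on the Control arrays. Elf5 had 25.0, 32.3, 6.89, -9.68 and 6.97 on the Fzd8-CRD arrays, against 43.3, 33.5, 73.9 and 63.6 on the Control arrays. The Fzd8-CRD arrays were thus the dimmer ones in the reference for all 3 genes.

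By contrast, Ly6a's reference was bright, with a net Cy3 intensity of 1260, 1603, 1401, 1352 and 1435 on the Fzd8-CRD arrays, against 2213, 2203, 2233 and 2236 on the Control arrays. Its net Cy5 intensity was 238, 325, 284, 197 and 204 on the Fzd8-CRD arrays, against 735, 998, 1430 and 2212 on the Control arrays. Ly6a was lower in both dyes before normalization, and the gap between the groups was wider in Cy5.

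The dimness of the reference was not limited to these genes. Net Cy3 was below 0 in 30.3% to 39.5% of non-control spots on 4 Fzd8-CRD arrays and in 1.78% on Fzd8-CRD replicate 2, against 1.09% to 1.63% on Control arrays. The median local Cy3 background was 46 to 61 on Fzd8-CRD arrays, against 41 to 43 on Control arrays. After quantile normalization of Cy3 alone, 59.1% of all genes differed between the groups, although each array carried a reference RNA; of the 8 genes, Ehf (-0.57, adjusted p = 0.000155) and Ly6a (-0.24, adjusted p = 0.000293) did so. The sources used here do not say whether 1 batch of reference served both groups, and its part in the ratio differences was not tested.

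**Figure D4:**
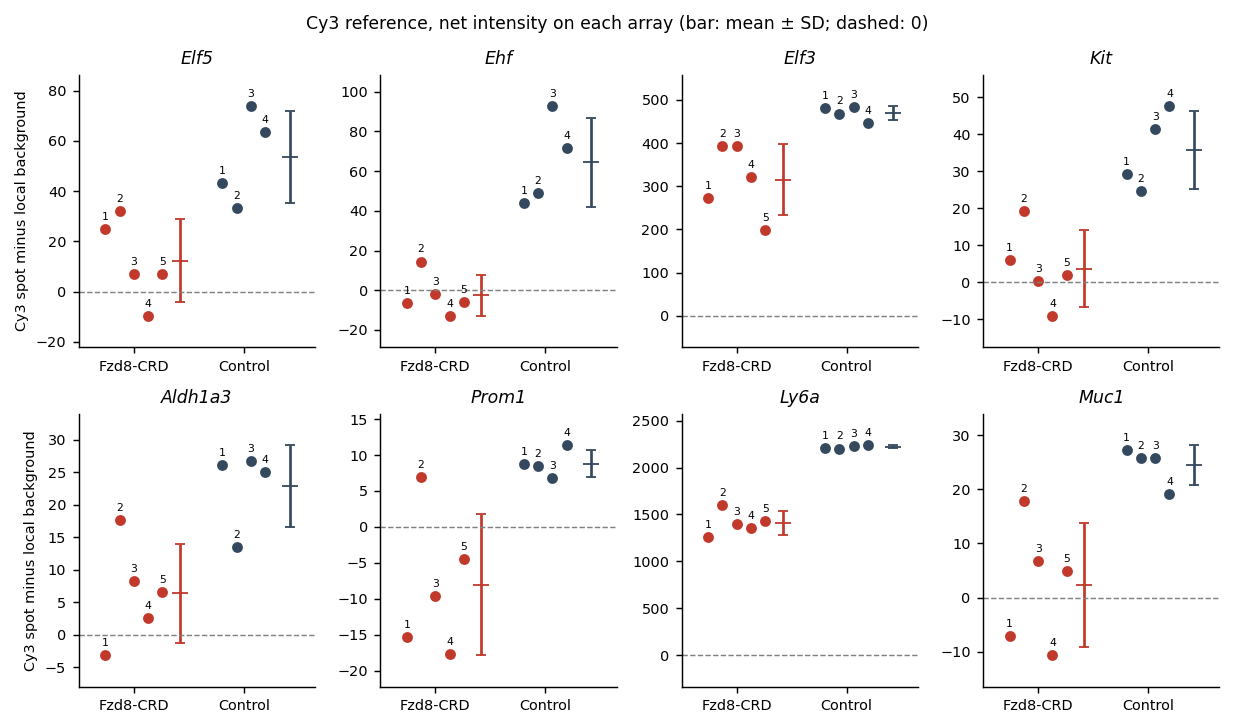
Net Cy3 intensity (spot mean minus local background, linear scale) of each gene's probe on each array, with Fzd8-CRD arrays on the left and Control arrays on the right of each panel. The dashed line is 0 and bars show the mean ± SD. Prom1 and Ehf are below 0 on 4 of 5 Fzd8-CRD arrays, and only Elf3 and Ly6a have a bright reference on all 9.

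Over the 24 alternative settings that gave each gene a value, Prom1 and Ly6a had negative differences throughout and each passed the test as lower in 22 of the 24 alternatives. These settings are not separate evidence. Quantile normalization of the average intensity cannot change a ratio. Other probe filters and the scanner files' gene names left the members' differences as they were, and the series table holds the scanner's ratio. Fits with 1 array left out share most arrays. Prom1 ranged from -2.13 to -0.72 and Ly6a from -1.85 to -1.05. Muc1 was called lower in 17 of the 24 and ranged from -1.24 to 0.16. Ehf was called lower in 14 and higher in 2, and ranged from -1.59 to 1.67. Elf5 and Kit were each called higher in 2, those that used the scanner's own ratio, and lower in 0. Aldh1a3 was called lower in 1 and Elf3 in 0.

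**Figure D5:**
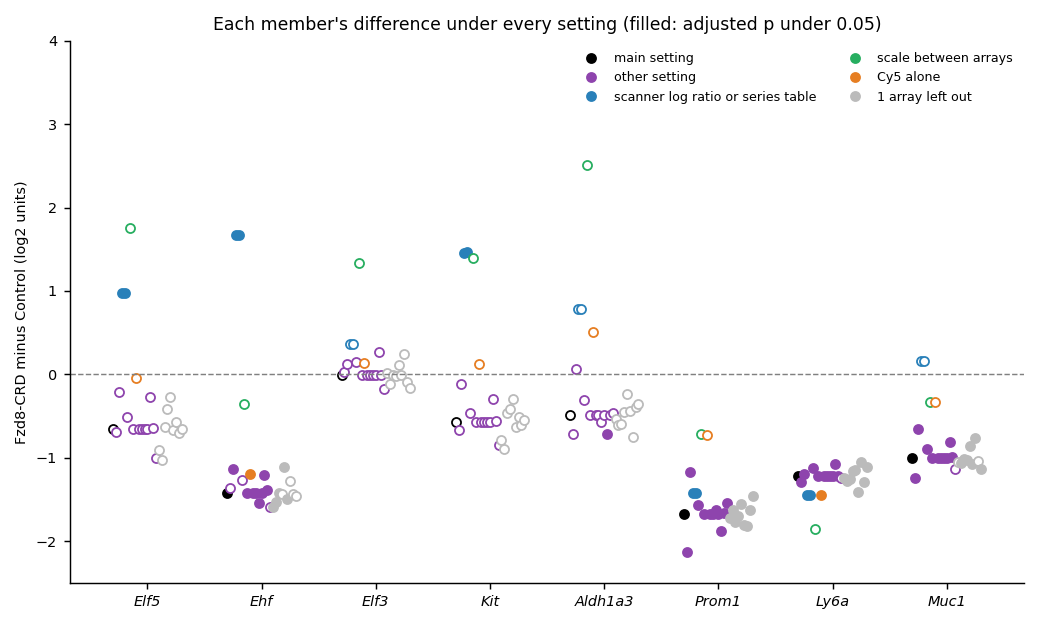
Difference of each gene, Fzd8-CRD minus Control in log2 units on the vertical axis, under the main setting (black) and 24 alternatives. Filled points passed an adjusted p of 0.05 in limma. Prom1 and Ly6a stay below 0 under all settings, and the points above 0 for Elf5, Ehf and Kit come from the scanner's ratio, the authors' series table, the scaled arrays (Elf5 and Kit) and Cy5 alone (Kit).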

How the data were processed

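Scanner files of 9 two-colour Agilent arrays were used. The deposited spot intensity values of both dyes, with local background, come, per the file headers, from Feature Extraction 9.5.3.1, as does the deposited log10 ratio of Cy5 over Cy3, which was turned to log2. The deposited series table holds the authors' linear ratio; on the log2 scale it matched the scanner's ratio with r = 1 throughout, so scale and direction are known, and array medians were 0.833 to 0.954. No depth exists for arrays, and their number limits the precision.

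Background was corrected by normexp (offset 50) and ratios were normalized within arrays by loess in limma 3.58.1 (R 4.3.3; the data.table package was at 1.17.8). Control spots had no weight, and 1229 spots marked as outliers in either dye were left out. Replicate spots were averaged, and the 26722 of 41174 probes with a clear Cy5 signal (the scanner's own flag) on 4 or more arrays and measured on all 9 were kept. The brightest probe stood for a gene. The offset draws the ratios of dim spots towards 0, and a difference between groups can move either way with it. Groups, Fzd8-CRD minus Control, were compared with limma and Benjamini-Hochberg adjustment over all 18212 genes. Both dyes were tested singly as well, quantile normalized between arrays, with scaling of Cy5 to the 75th percentile as an alternative. The procedure was tested on simulated data.

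Groups came from the treatment label; replicate numbers follow accession order and pair no arrays. The members, the gene lists and the tests were chosen with earlier results of these data known. The text names all members, up to 4 genes per list past the threshold with the smallest p and, from lists with none, at most the 2 with the largest difference. Epcam, Krt8, Krt18, Tyr and Tyrp1 are named besides as detection checks. 1 gene that the rule names is not reported here. Alternatives are given at the end; leaving Control replicate 2 out of the list counts was added after the data were seen. Probe positions are those of the Fzd8-CRD files' array annotation (mm8), and the sequences come from the Control files.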

Additional observations from a re-analysis of the deposited data

Results flagged for a closer look

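In Muc1's log2 ratio, Fzd8-CRD replicate 5 lay far from the other 4 arrays of its group, at 0.61 against 1.26 for the nearest. The gap was 0.813 of the group's whole range, above Dixon's critical value for 5 samples. This was 1 of 16 groups of values examined (8 genes in 2 groups), and chance alone would mark about 1 in 20. Muc1 differed by -0.86 without this array.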

How the results depend on the processing

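No paired analysis was possible because the labels give no replicate numbers and those used here follow accession order. The count of the 8 genes called stayed within 1.5 times 4 under most settings. It was 5 with the scanner's log ratio and with the deposited series table (3 higher, 2 lower), 2 in Cy5 alone, 1 with the most alike pair of each group averaged, 0 with scaling between arrays, and 2 to 4 with 1 array left out; over all genes, leaving 1 out gave 1340 to 3095 calls. Scaling multiplies each array's ratios by its own factor, so that high ratios move most. Scaling Cy5 to the 75th percentile gave 3247 genes higher and 1068 lower, against 1836 and 1590 after quantile normalization. In Cy5 alone leaving 1 array out gave 2 to 3 of the 8 genes and 2068 to 3468 genes in all. Over all genes the count, 2616, became 614 with median centring, 1641 with scaling, 6921 with array weights, 5505 with slide as a random block (correlation -0.17; no slide holds both groups) and 340 with pairs averaged; the cause was not tested.

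Signs turned as follows, all to above 0. With the scanner's log ratio and with the series table, Ehf was at 1.67, Elf5 at 0.98, Aldh1a3 at 0.79, Elf3 at 0.36, Muc1 at 0.16 and Kit at 1.46 in both. With scaling Aldh1a3 was at 2.51, Elf5 at 1.76, Kit at 1.40 and Elf3 at 1.34, in Cy5 alone Aldh1a3 was at 0.51 and Elf3 and Kit at 0.13, and with no background correction Elf3 was at 0.12 and Aldh1a3 at 0.067. Elf3, at -0.00467 in the main setting, was at 0.0293 with an offset of 16, 0.15 with median centring and 0.27 with array weights, and ran from -0.16 to 0.25 with 1 array left out. The cause was not tested. For 11 of the 13 probes the Cy3 signal was not well above background on at least 1 array, which limits every ratio.

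The call was lost for Ehf with an offset of 16 (adjusted p = 0.0798), median centring (0.0562), scaling (0.316) and averaged pairs (0.0798), for Muc1 with scaling (0.18), Cy5 alone (0.30) and averaged pairs (0.0803), for Prom1 with scaling (0.141) and Cy5 alone (0.0527), and for Ly6a with scaling (0.056) and averaged pairs (0.0593). Aldh1a3 passed with array weights, at -0.72 (adjusted p = 0.0296). With Control replicate 2 left out, the list counts moved by more than 1.5 times for general epithelial genes (3 called), KIT signalling genes (3), fibroblast markers (1, against 0) and T cell markers (1, against 0).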
